A study of Homo sapiens with 18 samples.

Results

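The enzymes that turn farnesyl diphosphate into squalene and squalene into cholesterol were followed across an RNA-Seq experiment on ESCRT-I-depleted RKO cells. The genes were taken by name, in pathway order: FDFT1, SQLE, LSS, CYP51A1, MSMO1, NSDHL, EBP, SC5D and DHCR7. Each of the 9 has 1 row among the 20802 transcript targets of the count lists, and 8 of them are among the 10213 genes that were tested. LSS had too few counts for a test. RKO is an established human colorectal carcinoma line, and all cells were transfected once with 30 nM siRNA, grown in medium with fetal bovine serum and collected after 72 h. The 6 groups received the nontargeting siCtrl#1 or siCtrl#2, siTsg101#1 or siTsg101#2 against TSG101, or siVps28#1 or siVps28#2 against VPS28, which code for subunits of ESCRT-I, a complex that sorts membrane proteins at endosomes. Each group had 3 biological replicates, numbered as batches 1 to 3 in the labels, so that each batch held 1 library of each siRNA. The model is a transient knockdown in a single line, and no group was left untransfected.

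The libraries held 2561790 to 7466916 counts on genes, and levels are given here as CPM, a gene's counts relative to the total of its library, with library sizes adjusted by TMM, a scaling that brings the bulk of genes to the same level. The targeted genes followed the labels in every library. TSG101 was between 2.39 and 4.79 CPM in the 6 libraries with its own siRNAs and between 71.5 and 159.9 CPM elsewhere, and VPS28 was between 3.34 and 7.47 CPM with its own siRNAs and between 62.5 and 107.4 CPM elsewhere. Of the epithelial and colorectal markers, KRT18, KRT8, CDX2 and EPCAM were counted in siCtrl#1 cells, while CDH1, KRT20 and VIL1 had 0 counts there, as did the leukocyte marker PTPRC and the endothelial marker PECAM1. COL1A1, a fibroblast gene, had 1 to 5 counts per siCtrl#1 library. In the mean of the 4 on-target siRNAs EPCAM rose by 0.65 and KRT8 fell by 0.69 on the log2 scale (adjusted p = 0.0381 and 0.0127 from edgeR), and EPCAM also rose with siCtrl#2, by 1.02.

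FDFT1, squalene synthase, commits farnesyl diphosphate to sterols. SQLE, squalene epoxidase, and LSS, lanosterol synthase, then oxidize squalene and close the rings to lanosterol. CYP51A1 removes a methyl group from lanosterol, and MSMO1 and NSDHL work in the removal of further methyl groups. EBP shifts a double bond of the ring, SC5D adds one and DHCR7 reduces another in the last steps. The enzymes sit in membranes of the endoplasmic reticulum. When sterols there are scarce, the SREBP transcription factors are released by proteolysis and bind sterol regulatory elements in promoters of such genes, often beside CCAAT boxes bound by NF-Y. This background is textbook knowledge and not a result of these libraries.

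Promoter sequences were matched in RefSeq, on GRCh38.p14, for 7 of the 9 genes, all but FDFT1 and SQLE. The 250 bases before the annotated start are shown for MSMO1, NSDHL and DHCR7, which were up-regulated with all 4 on-target siRNAs, and for SC5D, which was not. Each is written 5′ to 3′ on the strand of the gene, with CCAAT, or its reverse complement ATTGG, in capitals. The windows are MSMO1 at chr4:165327419-165327668 on the plus strand, NSDHL at chrX:152830813-152831062 on the plus strand, DHCR7 at chr11:71448394-71448643 on the minus strand and SC5D at chr11:121292521-121292770 on the plus strand.
MSMO1: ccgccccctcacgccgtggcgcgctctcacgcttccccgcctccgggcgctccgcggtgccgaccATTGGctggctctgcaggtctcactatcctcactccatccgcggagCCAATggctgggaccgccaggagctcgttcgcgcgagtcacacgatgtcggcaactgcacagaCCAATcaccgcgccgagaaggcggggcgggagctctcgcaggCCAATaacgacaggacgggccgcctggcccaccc
NSDHL: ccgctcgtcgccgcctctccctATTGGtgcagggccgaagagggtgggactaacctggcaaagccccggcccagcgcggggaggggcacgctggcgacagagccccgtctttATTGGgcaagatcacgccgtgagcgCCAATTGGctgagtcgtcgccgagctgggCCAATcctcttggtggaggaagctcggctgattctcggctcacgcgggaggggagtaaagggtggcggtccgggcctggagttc
DHCR7: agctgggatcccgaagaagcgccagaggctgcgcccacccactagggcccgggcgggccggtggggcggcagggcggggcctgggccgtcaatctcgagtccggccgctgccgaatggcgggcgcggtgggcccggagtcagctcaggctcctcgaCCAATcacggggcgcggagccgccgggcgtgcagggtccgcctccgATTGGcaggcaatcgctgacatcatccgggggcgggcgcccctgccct
SC5D: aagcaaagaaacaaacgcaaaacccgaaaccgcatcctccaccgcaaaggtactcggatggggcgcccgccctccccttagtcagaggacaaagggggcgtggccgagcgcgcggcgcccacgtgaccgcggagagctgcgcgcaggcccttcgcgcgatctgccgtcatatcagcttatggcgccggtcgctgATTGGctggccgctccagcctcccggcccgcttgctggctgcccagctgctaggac
The letters CCAAT, searched on both strands, were found for 6 of the 7 matched genes, all but CYP51A1, against 32.0% of 35116 promoter windows of the same length. DHCR7 and SC5D have 2 annotated starts each, and a gene was counted if either window held the letters. This motif was chosen after the sequences had been seen. MSMO1 holds 4 copies and NSDHL holds 5, of which one on each strand overlap in CCAATTGG. DHCR7 holds 2 copies, and SC5D holds 1 in the window shown, 56 bases before the start. EBP, which was not called in the mean of the siRNAs, holds 3 copies, and LSS, which was not tested, holds 1. CYP51A1, which was up-regulated with all 4 on-target siRNAs, holds 0. A core of the sterol regulatory element, TCACNCCAC on either strand, was found for 0 of the 7 genes and in 0.883% of all windows. The shorter TCACNCCA was found for MSMO1 and in 3.20% of all windows. These matches describe letters and not binding, and the window ends at the start site.

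Of the 8 enzymes tested, 6 were up-regulated with each of the 4 on-target siRNAs, namely FDFT1, SQLE, CYP51A1, MSMO1, NSDHL and DHCR7. A gene was called at a change of 1.5-fold or more relative to siCtrl#1 with an adjusted p-value under 0.05 (edgeR, Benjamini-Hochberg). Across all genes tested, 2.58% were called up with all 4 siRNAs. With siTsg101#1, 7 of the 8 enzymes were called up against 11.8% of all genes, and with siTsg101#2 6 were, against 10.4%. With siVps28#1 6 were called up against 4.91%, and with siVps28#2 6 were, against 7.09%. In the mean of the 4 siRNAs 6 were called up against 8.56%, and the median log2 fold change of the 8 was 1.64, against -0.0034 over all genes. None of the 8 was called down in any of these comparisons. Several of these genes were named by the study from the same libraries, so that their direction is not independent evidence. Counts per cell were not measured, and a change in RNA per cell cannot be told apart from a change in the make-up of the culture.

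**Figure D1:**
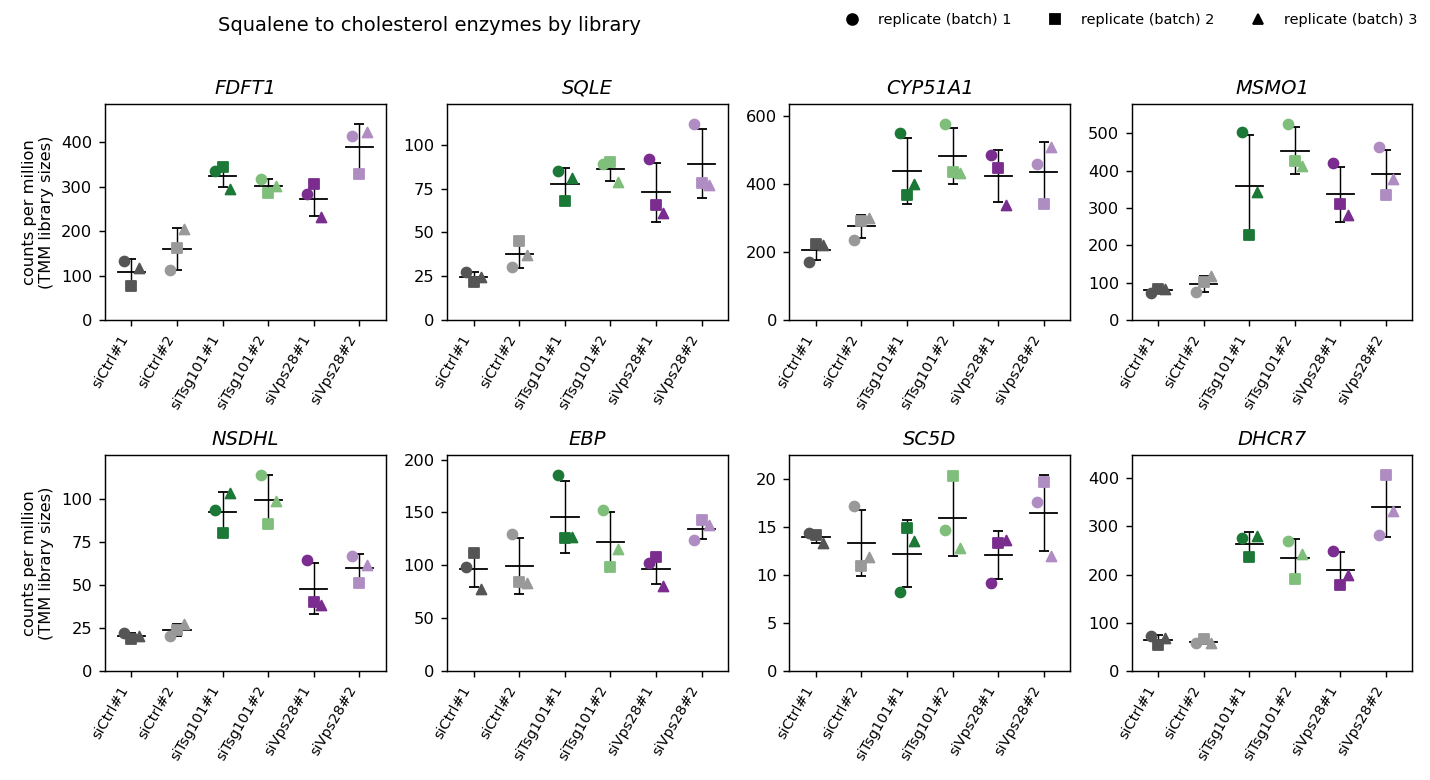
Levels of the 8 tested enzymes in CPM (y axis, starting at 0) in each of the 18 libraries, by siRNA group (x axis). Points are libraries with the batch given by their shape, horizontal lines are group means and bars are the SD (n = 3); FDFT1, SQLE, CYP51A1, MSMO1, NSDHL and DHCR7 lie above all 6 nontargeting libraries in 12 of 12 on-target libraries, EBP in 4 and SC5D in 3.

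FDFT1 (NM_004462, chromosome 8 of GRCh37, 11653082 to 11696904, plus strand) was at 132.8, 76.7 and 115.8 CPM in batches 1 to 3 with siCtrl#1 and at 111.5, 162.8 and 205.1 CPM with siCtrl#2. It was at 334.6, 343.4 and 295.6 CPM with siTsg101#1 and at 316.2, 286.4 and 301.5 CPM with siTsg101#2. With siVps28#1 it was at 282.5, 305.1 and 230.7 CPM, and with siVps28#2 at 414.1, 329.6 and 423.7 CPM. The lowest on-target library, siVps28#1 in batch 3, was thus above the highest nontargeting one, siCtrl#2 in batch 3. Its log2 fold change over the 4 siRNAs was 1.55 (SE 0.18, adjusted p = 1.36e-06 from edgeR), or 2.93-fold, and by siRNA it ran from 1.33 with siVps28#1 to 1.84 with siVps28#2. Of its annotated exons, 217 bases overlap an antisense gene, and the strand setting of the counting is not given in the sources used here.

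SQLE (NM_003129, chromosome 8, 126010739 to 126034525, plus strand), the oxygen-consuming first step after squalene, had 74 to 718 counts per library. It was at 27.2, 21.8 and 24.5 CPM with siCtrl#1 and at 30.1, 45.1 and 37.2 CPM with siCtrl#2, and the ranges of these 2 groups were apart. It was at 84.8, 67.7 and 80.9 CPM with siTsg101#1 and at 89.2, 90.1 and 78.6 CPM with siTsg101#2. With siVps28#1 it was at 91.9, 65.9 and 60.9 CPM, and with siVps28#2 at 111.9, 78.3 and 77.3 CPM. In order of mean, each on-target group overlapped in range with the next on-target one, and the lowest of them, siVps28#1, was apart from siCtrl#2. The log2 fold change over the 4 siRNAs was 1.72 (SE 0.17, adjusted p = 2.36e-07 from edgeR), or 3.30-fold, with values from 1.57 to 1.86 by siRNA.

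CYP51A1 (NM_000786, chromosome 7, 91714301 to 91764117, minus strand), the lanosterol demethylase, had the smallest change of the 6. It was at 171.5, 223.9 and 220.4 CPM with siCtrl#1 and at 235.6, 290.1 and 300.9 CPM with siCtrl#2, again with ranges apart. It was at 551.0, 369.4 and 400.3 CPM with siTsg101#1 and at 577.1, 436.0 and 432.1 CPM with siTsg101#2. It was at 485.6, 446.3 and 337.7 CPM with siVps28#1 and at 460.9, 341.6 and 508.3 CPM with siVps28#2. The lowest on-target library was above the highest nontargeting one by a small margin, 337.7 against 300.9 CPM. The log2 fold change was 1.12 (SE 0.17, adjusted p = 3.20e-05 from edgeR), or 2.17-fold, and from 1.04 to 1.23 by siRNA. With siCtrl#2 as the reference it was 0.69, and the call with siVps28#1 was lost (log2 fold change 0.62, adjusted p = 0.0703 from edgeR). Of the stretches of 50 bases in its transcripts, 71.1% also occur in other annotated transcripts, among them 2 genes on the same strand and the pseudogenes CYP51A1P1 and CYP51A1P2, and the position of its amplicon is not given in the sources used here, so that whether its reads could be shared was not tested.

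MSMO1 (NM_006745, chromosome 4, 166248819 to 166264316, plus strand), methylsterol monooxygenase, had the largest change of the 8 in the mean of the siRNAs relative to siCtrl#1 (with siCtrl#2 as the reference DHCR7 had it, 2.09 against 1.97). It was at 73.3, 82.0 and 84.0 CPM with siCtrl#1 and at 73.9, 100.5 and 117.3 CPM with siCtrl#2. With siTsg101#1 it was at 504.7, 229.1 and 342.3 CPM and with siTsg101#2 at 525.3, 424.9 and 412.3 CPM. With siVps28#1 it was at 420.4, 311.1 and 280.8 CPM and with siVps28#2 at 462.4, 335.3 and 376.7 CPM. In each on-target group the library of batch 1 was the highest, and the siTsg101#1 library of batch 2, the lowest of the 12, was still above all 6 nontargeting libraries. The log2 fold change was 2.26 (SE 0.21, adjusted p = 8.06e-08 from edgeR), or 4.80-fold. By siRNA it ran from 2.08 with siVps28#1 to 2.51 with siTsg101#2.

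NSDHL (NM_015922, chromosome X, 151999511 to 152038273, plus strand), the sterol dehydrogenase that acts with MSMO1, was at 22.0, 18.3 and 20.2 CPM with siCtrl#1 and at 20.4, 24.0 and 27.4 CPM with siCtrl#2. It was at 93.1, 80.1 and 103.0 CPM with siTsg101#1 and at 113.6, 85.2 and 98.6 CPM with siTsg101#2. With siVps28#1 it was at 64.6, 39.9 and 38.4 CPM, and with siVps28#2 at 66.6, 50.9 and 61.5 CPM. The libraries fell into 3 ranges that did not overlap, the nontargeting ones lowest, the siVps28 ones between and the siTsg101 ones highest. The log2 fold change over the 4 siRNAs was 1.82 (SE 0.18, adjusted p = 1.64e-07 from edgeR), or 3.53-fold.

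DHCR7 (NM_001360, chromosome 11, 71139239 to 71163914, minus strand), the reductase of 7-dehydrocholesterol, was at 71.7, 53.1 and 68.7 CPM with siCtrl#1 and at 57.9, 65.3 and 57.7 CPM with siCtrl#2, so that the 2 nontargeting groups overlapped. It was at 276.1, 236.2 and 279.2 CPM with siTsg101#1 and at 269.0, 191.2 and 241.7 CPM with siTsg101#2. With siVps28#1 it was at 249.6, 177.4 and 199.5 CPM and with siVps28#2 at 282.6, 406.5 and 330.9 CPM. The 3 siVps28#2 libraries were the highest of all 18. The log2 fold change over the 4 siRNAs was 1.99 (SE 0.16, adjusted p = 1.04e-08 from edgeR), or 3.97-fold, with values from 1.69 with siVps28#1 to 2.39 with siVps28#2.

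EBP and SC5D, which act one after the other between NSDHL and DHCR7, were not called in the mean of the 4 siRNAs. EBP (NM_006579, chromosome X, 48380187 to 48387104, plus strand), the sterol isomerase, was at 98.7, 111.8 and 77.9 CPM with siCtrl#1 and at 129.5, 84.1 and 83.0 CPM with siCtrl#2. It was at 185.4, 125.6 and 126.3 CPM with siTsg101#1, at 152.7, 98.0 and 115.6 CPM with siTsg101#2, at 101.7, 108.1 and 80.8 CPM with siVps28#1 and at 124.1, 142.4 and 137.7 CPM with siVps28#2. Of the 12 on-target libraries, 4 were above all nontargeting ones and the rest lay within their range. Its log2 fold change was 0.36 in the mean (SE 0.17, 95% interval 0.021 to 0.71, adjusted p = 0.117 from edgeR), and from 0.22 without siCtrl#1 replicate 3 to 0.48 without siCtrl#1 replicate 2 as single libraries were left out, not called in any of these 18 fits. With siTsg101#1 alone it was 0.60, or 1.51-fold, and was called (adjusted p = 0.0340 from edgeR), a call lost without siTsg101#1 replicate 1 (0.39, adjusted p = 0.207), without siCtrl#1 replicate 1 (0.62, adjusted p = 0.0706) and without siCtrl#1 replicate 3 (0.46, adjusted p = 0.154). The other 3 siRNAs gave 0.35 (siTsg101#2), 0.014 (siVps28#1) and 0.49 (siVps28#2), none of them called. With both nontargeting groups averaged as the reference, EBP was at 0.34 in the mean (adjusted p = 0.0457 from edgeR), under 1.5-fold. Of the stretches of 50 bases in its transcripts, 31.4% also occur in another annotated gene on the same strand.

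SC5D (NM_006918, chromosome 11, 121163390 to 121184119, plus strand), the desaturase before DHCR7, had few reads, between 21 and 136 counts per library. It was at 14.3, 14.2 and 13.3 CPM with siCtrl#1, at 17.2, 10.9 and 11.8 CPM with siCtrl#2, at 8.25, 14.9 and 13.5 CPM with siTsg101#1 and at 14.7, 20.3 and 12.8 CPM with siTsg101#2. With siVps28#1 it was at 9.19, 13.4 and 13.6 CPM and with siVps28#2 at 17.6, 19.7 and 11.99 CPM. On-target libraries lay on both sides of the nontargeting ones, with 3 above all 6 and 2 below. The log2 fold change was 0.023 (SE 0.20, adjusted p = 0.948 from edgeR), and its 95% interval, -0.39 to 0.44, leaves out a change of 1.5-fold in either direction. The range by siRNA was -0.20 with siVps28#1 to 0.24 with siVps28#2, and the interval of the mean does not hold for a single siRNA.

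LSS (NM_001001438, chromosome 21, 47608055 to 47648738, minus strand) had 73 counts in all 18 libraries together, under the minimum of more than 100. The 3 libraries together held 6 counts with siCtrl#1 and 3 with siCtrl#2. Tsg101 depletion gave 3 counts with siTsg101#1 and 26 with siTsg101#2, and Vps28 depletion gave 11 with siVps28#1 and 24 with siVps28#2. As CPM of all counts on genes this came to 0.414 with siCtrl#1 (exact 95% Poisson interval 0.152 to 0.901), 0.220 with siCtrl#2 (0.0453 to 0.643) and 0.217 with siTsg101#1 (0.0448 to 0.635). It was 0.863 with siVps28#1 (0.431 to 1.54), an interval that overlaps those of all other groups. It was 1.36 with siTsg101#2 (0.891 to 2.00) and 1.28 with siVps28#2 (0.821 to 1.91). These intervals cover counting error only. The groups with the most LSS counts are also those with the deepest median library. The deepest single library, siTsg101#1 replicate 3 (7466916 counts on genes), held 1 LSS count. The part of depth in these counts was not tested. Of its exons, 570 bases overlap antisense genes. Fitted with all genes and no count minimum, LSS passed no test (adjusted p = 0.543 for the mean of the 4 siRNAs, edgeR). Its lowest adjusted p-value in that fit was 0.0508 (edgeR), for siTsg101#2 minus siTsg101#1, at a log2 difference of 2.49.

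**Figure D2:**
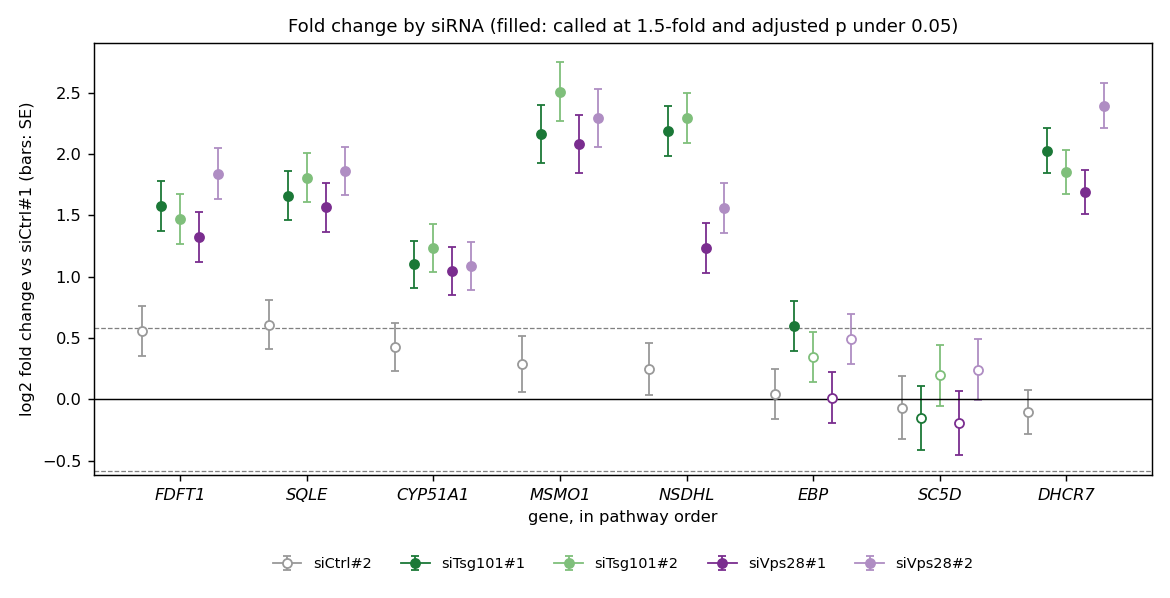
Log2 fold change relative to siCtrl#1 (y axis) of the 8 tested enzymes in pathway order (x axis) for siCtrl#2 and each on-target siRNA; bars are the SE from edgeR, filled points are called and dashed lines mark 1.5-fold. FDFT1, SQLE, CYP51A1, MSMO1, NSDHL and DHCR7 are called with all 4 on-target siRNAs, and the open siCtrl#2 points of FDFT1, SQLE and CYP51A1 lie between 0.43 and 0.61.

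The second nontargeting siRNA gave the background of the method. None of the 8 enzymes was called with siCtrl#2 relative to siCtrl#1 (0 by edgeR and by DESeq2), against 2.09% of all genes changed in either direction. At an unadjusted p under 0.05, 3 of them were higher with siCtrl#2, and the share of all genes at that level was not computed. FDFT1 was higher by 0.56 (95% interval 0.14 to 0.98, adjusted p = 0.178 from edgeR), SQLE by 0.61 (0.19 to 1.02, adjusted p = 0.129) and CYP51A1 by 0.43 (0.024 to 0.83, adjusted p = 0.304). Without siCtrl#2 replicate 1, the library least like its group (mean r 0.964), FDFT1 at 0.75 (adjusted p = 0.0293) and SQLE at 0.74 (adjusted p = 0.0442) were called up. In that fit 440 of all genes tested were called in either direction, against 213 in the main fit. MSMO1 differed by 0.29, NSDHL by 0.25, EBP by 0.043, SC5D by -0.067 and DHCR7 by -0.10, none with an unadjusted p under 0.05. Relative to siCtrl#2, the changes over the 4 siRNAs were 1.00 for FDFT1, 1.11 for SQLE, 1.97 for MSMO1, 1.57 for NSDHL and 2.09 for DHCR7, all called. Of all genes tested, 1.96% had all 12 on-target libraries above all 6 nontargeting ones, as did 6 of the 8 enzymes.

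To compare within batches, each on-target library was set against the siCtrl#1 library of its own batch, which gives 12 ratios per gene. For FDFT1, SQLE, CYP51A1, MSMO1, NSDHL and DHCR7, 12 of 12 were over 1.5-fold, from a lowest log2 ratio of 0.61 for CYP51A1 to a highest of 2.94 for DHCR7. For EBP 10 of 12 ratios were positive and 4 were over 1.5-fold, and for SC5D 7 of 12 were positive and 0 over 1.5-fold. The share of all genes that reach such counts of ratios was not computed. The batch means of MSMO1 were 2.70, 1.95 and 2.06 in batches 1 to 3, those of CYP51A1 1.59, 0.82 and 0.91, and those of FDFT1 1.33, 2.04 and 1.40. The siCtrl#1 library in the denominator is shared by the 4 ratios of a batch.

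NSDHL was the only one of the 8 called different between Tsg101 and Vps28 depletion, a comparison in which 6.23% of all genes were called in either direction. It was higher after Tsg101 depletion by 0.85 on the log2 scale (SE 0.13, 95% interval 0.57 to 1.12, adjusted p = 0.000106 from edgeR), or 1.80-fold. By batch the difference was 0.65, 0.87 and 1.05. All 6 siTsg101 libraries were above all 6 siVps28 libraries, and 4.97% of all genes had these libraries apart in either direction. Between the 2 siTsg101 siRNAs NSDHL differed by 0.10 (95% interval -0.28 to 0.49), and between the 2 siVps28 siRNAs by 0.33 (-0.064 to 0.72). For the other 7 enzymes the differences between the depletions were between -0.10 and 0.22, with adjusted p-values of 0.361 or more (edgeR). Their 95% intervals all stayed within 1.5-fold, with the highest bound at 0.52 for EBP.

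Between the 2 siVps28 siRNAs, none of the 8 enzymes was called, nor between the 2 siTsg101 siRNAs (0 by edgeR in each), against 0.480% and 6.98% of all genes. All 8 were higher with siVps28#2 than with siVps28#1, by a median of 0.38, against -0.0033 over all genes. DHCR7 came nearest to a call, at 0.70 (SE 0.17, unadjusted p = 0.000477, adjusted p = 0.0738 from edgeR), and it was called with the replicate number as a block (0.72, adjusted p = 0.0460 from edgeR) and by DESeq2 (adjusted p = 0.0138). By batch its difference was 0.18, 1.20 and 0.73, so that batch 1 showed little of it. FDFT1 at 0.51 (adjusted p = 0.448 from edgeR) and EBP at 0.48 (adjusted p = 0.518) also had an unadjusted p under 0.05. The share of all genes at that level was not computed. By DESeq2 0 members differed between the 2 siTsg101 siRNAs, and with edgeR 0 had an unadjusted p under 0.05. The siVps28#2 libraries were deeper than the siVps28#1 libraries, with medians of 6296771 and 4348598 counts, and the part of this in the result was not tested.

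**Figure D3:**
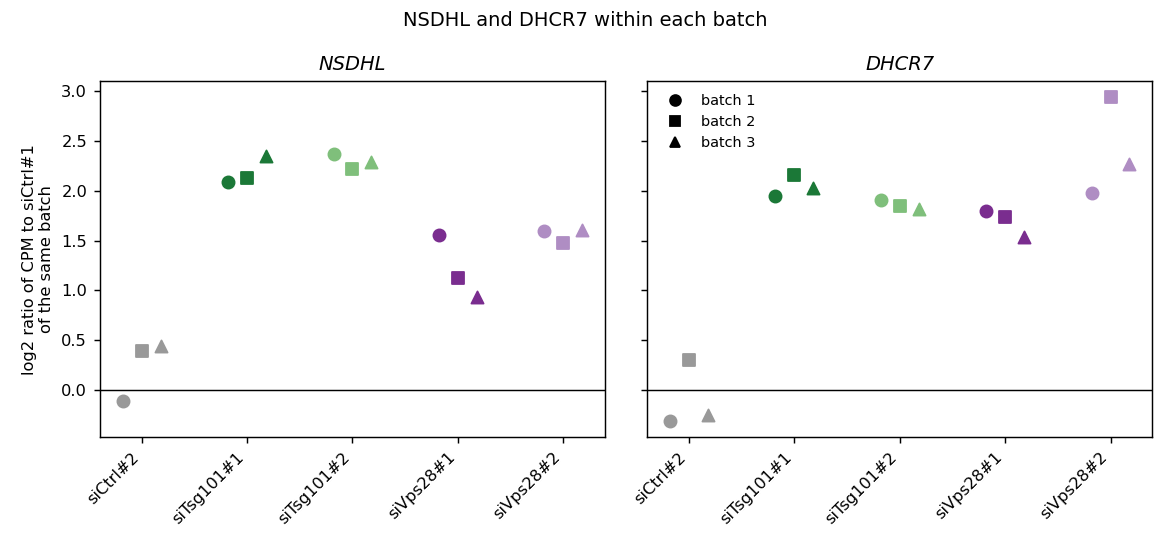
Log2 ratio of CPM to the siCtrl#1 library of the same batch (y axis) for NSDHL and DHCR7 in the libraries of the other 5 siRNA groups (x axis); each point is a library and its shape gives the batch. NSDHL is higher in all 6 siTsg101 libraries than in the 6 siVps28 libraries, and the highest DHCR7 point is siVps28#2 in batch 2 at 2.94.

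Other enzymes of the same steps were HSD17B7, TM7SF2 and LBR, listed with ERG28, a scaffold of the demethylation complex. Of these 4, 2 were called up with all 4 siRNAs, against 2.58% of all genes, and 0 down. Their median log2 fold change in the mean was 0.69. HSD17B7, the ketosteroid reductase that follows NSDHL and has an annotated pseudogene that could share its reads, rose by 1.36 (SE 0.18, adjusted p = 9.39e-06 from edgeR), and ERG28 rose by 0.90 (SE 0.14, adjusted p = 6.69e-05). The sterol reductases TM7SF2 and LBR were at 0.48 (adjusted p = 0.0698) and 0.056 (adjusted p = 0.759). EBP and SC5D were thus not the only genes of these steps without a call.

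Of 7 enzymes of the mevalonate steps upstream, 5 were called up with all 4 siRNAs, against 2.58% of all genes, and 0 down. Their median was 1.14 in the mean. HMGCS1, the synthase of HMG-CoA, rose by 3.27, and IDI1, the isomerase of isopentenyl diphosphate, by 1.82, with adjusted p-values of 3.50e-12 and 3.21e-08 (edgeR). FDPS, which makes the substrate of FDFT1, was at 0.50 with a wide interval (-0.11 to 1.12, adjusted p = 0.238). HMGCS1 was the only one of the 7 called with siCtrl#2, at 0.77 (adjusted p = 0.0186).

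Of the 7 genes of the SREBP system, 3 were called up in the mean of the 4 siRNAs, 2 of them with each siRNA, and 0 down. Across all genes, 8.56% were called up in the mean and 2.58% with each siRNA. INSIG1 and INSIG2, which hold the SREBP complex in the endoplasmic reticulum, rose by 1.15 and 1.36 (adjusted p = 3.11e-05 and 0.000508 from edgeR). MBTPS1, the site-1 protease, rose by 0.78 (adjusted p = 0.00103), and was also called up with siCtrl#2, by 0.91 (adjusted p = 0.0122). SREBF2, the factor that mainly drives cholesterol genes, was higher by 0.52 (adjusted p = 0.00726), under 1.5-fold.

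Of the listed electron donors and protein partners of these enzymes, 4 of 6 were tested and none was called in the mean. CYB5A was at 0.060 and PGRMC1 at 0.030, with adjusted p-values of 0.821 and 0.897 (edgeR), and MARCHF6, a ubiquitin ligase for SQLE, was at 0.39 (adjusted p = 0.0200), under 1.5-fold. CYB5R3 had 0 counts in all libraries, and the cytochrome P450 reductase was not analysed here. Of the LXR receptors and targets, a response to sterol excess, 4 of 6 were tested. In the mean 1 was called up, against 8.56% of all genes. ABCA1, a cholesterol exporter, rose by 1.94 (SE 0.38, adjusted p = 0.000565 from edgeR) from 2 to 6 counts per siCtrl#1 library, and was not called with siVps28#2. MYLIP, at 0.018, NR1H2, at 0.21, and LPCAT3, at -0.10, were not called.

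**Figure D4:**
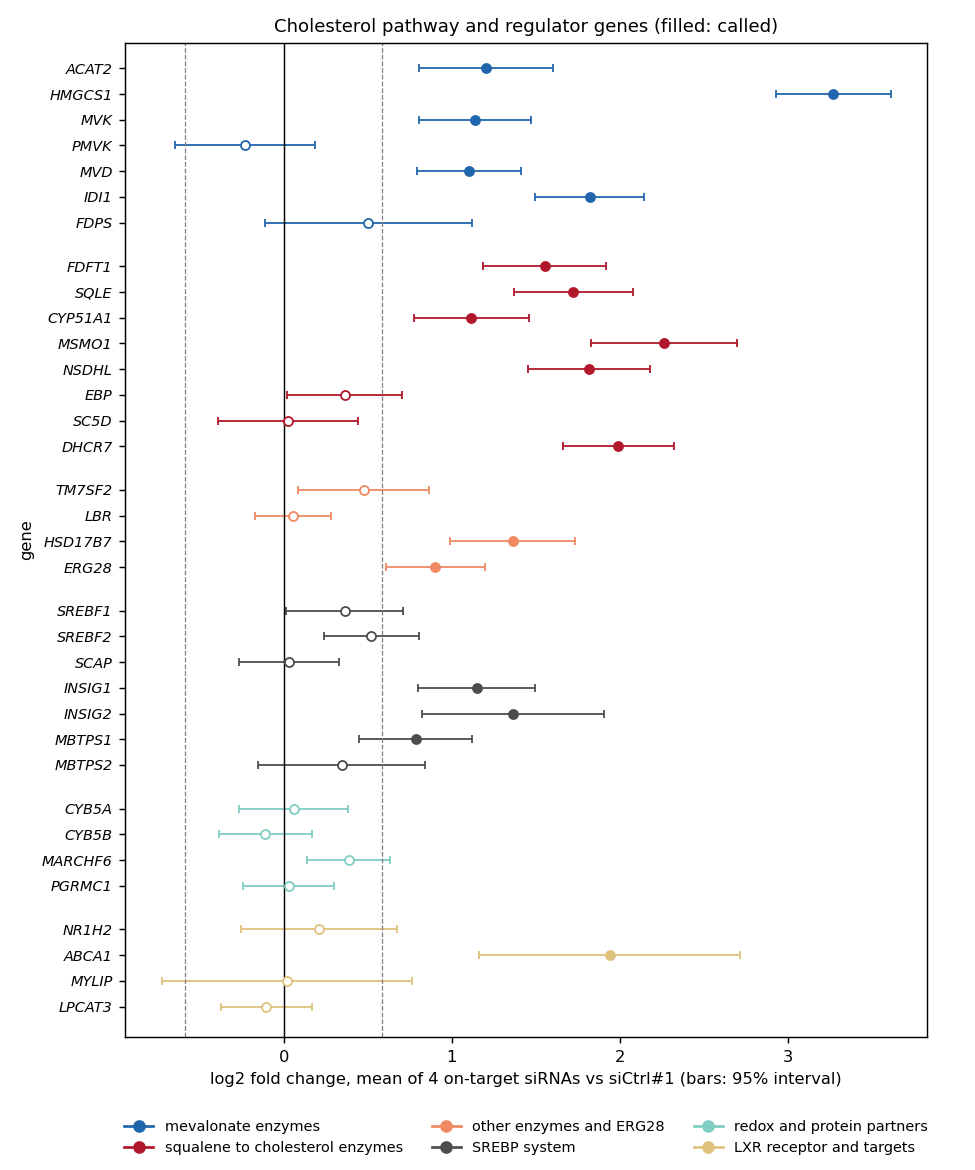
Log2 fold change in the mean of the 4 on-target siRNAs relative to siCtrl#1 (x axis), with 95% intervals from edgeR, for the tested genes of each list (y axis); filled points are called and dashed lines mark 1.5-fold. Of the squalene to cholesterol enzymes 6 of 8 are filled, of the mevalonate enzymes 5 of 7, of the other enzymes and ERG28 2 of 4, of the SREBP system 3 of 7, of the partners 0 of 4 and of the LXR genes 1 of 4.

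Among the 12 on-target libraries, the 6 enzymes called up varied together to different extents. Over their 15 pairs, Pearson's r of log2 CPM ran from 0.052 (CYP51A1 with DHCR7) to 0.797 (CYP51A1 with MSMO1), with a median of 0.446. These are descriptions over 12 libraries that share batches and siRNAs. SC5D with the 6 ran from -0.481 to 0.092 and EBP from 0.318 to 0.648.

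The genes outside the list whose levels most resembled the mean of the enzymes over all 18 libraries were IDI1 (r = 0.969), HMGCS1 (0.957) and HSD17B7 (0.947), all of the same pathway, followed by IRAK2 (0.942) and KIF21A (0.936). MVD (0.926), CXCL8 (0.924), MMP10 (0.924), N4BP2 (0.923) and CNDP2 (0.923) completed the first 10. These values rank likeness only, since any gene that differs between on-target and nontargeting libraries scores high on it. For single enzymes, HMGCS1 was the nearest gene to FDFT1 (0.954), SQLE (0.957) and DHCR7 (0.962), and IDI1 to MSMO1 (0.964). The nearest to CYP51A1 was SPAG9 (0.923) and the nearest to NSDHL was RIOK3 (0.958), followed by TUT7 (0.954). EBP and SC5D had less similar neighbours, USP43 (0.865) and EEF2KMT (0.832).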

How the data were processed

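RNA of RKO cells was measured in 18 libraries, 3 of each of 6 siRNA groups. The authors used the Ion AmpliSeq Transcriptome panel, which amplifies 1 short region per transcript, and an Ion Proton sequencer. They deposited raw read counts per RefSeq target, made with HTSeq 0.6.0 against hg19 per the labels. Of 20802 targets, 20224 were matched to a symbol. Amplicons differ in efficiency, so levels were not compared between genes. As in the study, targets with more than 100 counts in all (10632) were kept and 419 noncoding ones were left out. Counts were fitted with edgeR 4.0.16 in R 4.3.3 (TMM, quasi-likelihood test, 1 model of 6 groups), tested on simulated data first, and p-values were adjusted by Benjamini-Hochberg over 10213 genes. The labels give the replicate number as the batch, so the numbers pair the libraries; deviations from group means had a mean r of 0.145 in 45 same-numbered pairs (-0.148 to 0.389) and -0.0729 in others. A fit with this block, DESeq2 1.42.0, other filters, other references and leaving out each library were the alternatives. The genes named are the 9 enzymes, TSG101 and VPS28, genes of lists from general knowledge and the genes most like the enzymes by r. Some genes of these lists are not reported here. Enzymes and lists were chosen with earlier results of these data known. Shared sequence and overlaps were measured in GENCODE transcripts on GRCh37. Amplified reads carry no molecular identifiers, so counting intervals cover counting error only.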

Additional observations from a re-analysis of the deposited data

Results flagged for a closer look

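NSDHL differed between the depletions of the 2 ESCRT-I subunits, by a test of the difference itself. The log2 difference, Tsg101 minus Vps28 depletion, was 0.85 (adjusted p = 0.000106 from edgeR). It stayed between 0.78 and 0.98 when each library in turn was left out, with adjusted p-values up to 0.000678. The replicate block gave 0.85 (adjusted p = 1.86e-05 from edgeR).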

How the results depend on the processing

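The counts of enzymes called in each comparison with siCtrl#1 stayed within 1.5 times their value under every alternative run, apart from those named here. The number differing between the siVps28 siRNAs went from 0 to 1 (DHCR7) with DESeq2, with no low-count filter and with the replicate block. The block changed no other call of the 8 enzymes. The number changed with siCtrl#2 ranged from 0 to 2 as single libraries were left out, and was 2 without siCtrl#2 replicate 1. With siCtrl#2 as the reference, 5 enzymes were called up in common, without CYP51A1, and EBP lost its call with siTsg101#1 (adjusted p = 0.0612 from edgeR), as it did with both nontargeting groups averaged (log2 fold change 0.58, adjusted p = 0.0159, under 1.5-fold). The value of SC5D in the mean of the 4 siRNAs ranged from -0.030 to 0.066 as single libraries were left out and changed sign to -0.0099 without siTsg101#1 replicate 2, -0.030 without siTsg101#2 replicate 2, -0.018 without siVps28#2 replicate 2, -0.017 without siCtrl#1 replicate 3 and -0.0066 without siVps28#1 replicate 3, each within its SE of 0. Scaling by RLE in place of TMM changed no call, and the median of all genes was within 0.1 of 0 under both. Counts were low for LSS, with 0 to 10 per library, and for SC5D, with 21 to 136.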
